A study of Rattus norvegicus and Mus musculus with 22 samples.

Results

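The C/EBP genes Cebpa, Cebpb, Cebpd, Cebpg and Cebpz were followed through 22 RNA-seq libraries of a study of the response to cAMP. They were picked out by gene symbol. All 5 were listed in each of the 6 deposited tables, which hold between 17007 and 24537 genes. CCAAT/enhancer binding proteins are basic leucine zipper transcription factors that bind DNA as homodimers or heterodimers. C/EBPα maintains the differentiated hepatocyte and adipocyte. C/EBPβ and C/EBPδ respond quickly to hormones and cytokines, and C/EBPβ takes part in the cAMP control of hepatic gluconeogenesis. C/EBPγ lacks an activation domain and forms heterodimers, among others with ATF4. Cebpz shares the name through its binding to CCAAT boxes but encodes a protein of another family, whose yeast relative acts in ribosome assembly.

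Forskolin, which activates adenylyl cyclase and so raises cAMP, was given for 2 h at 10 µM, and control libraries had no treatment named in the labels. Forskolin and control libraries, 2 of each, came from cultured islets of wild-type black6 mice, from cultured hepatocytes of wild-type black6 mice and from rat INS-1 insulinoma cells. Islets of CRTC2KO mice, which lack the CREB coactivator CRTC2 in the whole body, gave 1 forskolin and 1 control library. A further INS-1 experiment had 1 library each of A485 with forskolin, JQ1 with forskolin, forskolin alone and control. A485 inhibits the acetyltransferases p300 and CBP and was given for 4 h at 10 µM, and JQ1 displaces BET bromodomain proteins and was given for 4 h at 1 µM. AR42J, a rat pancreatic tumour line with acinar features, carried NeuroD1 or GFP, with 1 forskolin and 1 control library of each. The sources used here do not say how NeuroD1 and GFP were delivered, how many mice were pooled or whether libraries of a group had separate origins. A p-value here therefore speaks of spread among libraries that may be technical repeats.

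Several libraries bear on the results that follow. Transcripts of hepatocyte markers were present in the islet libraries: the 19 markers summed to 3050 and 1218 approximate RPKM in forskolin islets 1 and 2, against 1437 and 1444 in control islets 1 and 2. Their median log2 values were 7.43 and 4.34, against 4.90 and 4.34. Such a sum can rest on few genes: in INS-1 cells 17 of these markers summed to 174 to 234 at a median log2 value of 0. Which cells the transcripts came from was not tested. The hepatocyte table's header lists its inputs as control, forskolin, forskolin, control, while its columns are named control 1, forskolin 1, control 2, forskolin 2, and it names 1 h of forskolin for the third input. Pck1, a gluconeogenic cAMP target, stood at log2 values of 10.1 and 7.62 in the columns named forskolin 1 and 2, against 7.71 and 10.2 in those named control 1 and 2. The wild-type columns of the knockout table appear to repeat islet replicate 2, since their forskolin differences correlated at r = 0.977 with it and at 0.476 with replicate 1 over 6572 genes, and they are not counted as further replicates. Crtc2 was listed at 9.58 and 7.77 FPKM in forskolin and control CRTC2KO islets, against 13.9 and 18.7 in forskolin and control wild-type islets. Which part of the gene is deleted is not given, so Crtc2 reads outside it would check nothing. Neurod1 stood at 3834 and 3323 FPKM in forskolin and control NeuroD1 cells, against 5.67 and 3.44 in forskolin and control GFP cells. Beta cell markers fitted the labels: 10 genes summed to between 316178 and 447546 approximate RPKM in the islet libraries and to at most 3.06 in the hepatocyte libraries. Acinar markers, 15 genes, summed to 964 and 3387 approximate RPKM in forskolin islets 1 and 2, against 1074 and 2359 in control islets 1 and 2. Depth was 1.95 to 6.20 M reads in the replicated tables, with no total for 1 INS-1 control, and an estimated 0.604 to 5.67 M in the others.

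Forskolin raised Cebpd and Cebpb in wild-type islets, and Cebpd by the larger factor. Cebpd stood at log2 values of 7.35 and 8.67 in forskolin islets 1 and 2, against 5.59 and 5.29 in control islets 1 and 2. Both forskolin libraries lay above both control libraries, and forskolin 2 was the highest. The difference was 2.57 (SE 0.397, limma adjusted p = 0.0220), 5.95-fold, and ranked 27 from the largest increase among 13656 genes. Folds from these log2 values are on the regularised scale, which pulls low genes towards the mean. Cebpb, a second early-response member, stood at 5.26 and 5.92 in forskolin islets, against 4.18 and 4.41 in control islets. These groups did not overlap either. Its difference of 1.29 (SE 0.240, limma adjusted p = 0.0433), 2.45-fold, ranked 225. Thus 2 of the 5 genes were called, both higher, where 1.72% of the 13656 tested genes were called higher and 0.242% lower. Both calls are close to the threshold. They ended without a variance trend in limma, at adjusted p = 0.0814 for Cebpd and 0.107 for Cebpb. The call of Cebpb also ended with no filter on low values (adjusted p = 0.0570) and without control 1 (adjusted p = 0.0975). The authors' deposited table calls 2.83% of 17053 genes higher, both of these among them, and 0.369% lower. The authors' deposited table gives a log2 fold change of 3.73 for Cebpd (adjusted p = 4.38e-12) and of 2.50 for Cebpb (adjusted p = 5.20e-04).

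The other 3 genes did not pass in islets. Cebpa, low in islets, stood at 3.73 and 3.14 in forskolin islets and 3.23 and 2.89 in control islets, and the groups overlapped (difference 0.37, limma adjusted p = 0.459). Cebpg stood at 7.20 and 6.60 in forskolin islets and 6.22 and 6.48 in control islets (difference 0.55, adjusted p = 0.388). Cebpz stood at 6.86 and 6.47 in forskolin islets and 6.24 and 6.28 in control islets (difference 0.40, adjusted p = 0.442). For all 3 genes the forskolin minus control difference was larger in replicate 1 (0.50, 0.98 and 0.61 for Cebpa, Cebpg and Cebpz) than in replicate 2 (0.24, 0.11 and 0.19). Cebpd and Cebpb had the reverse order, with 1.76 and 1.08 in replicate 1 and 3.38 and 1.51 in replicate 2. The median forskolin minus control difference of the 19 hepatocyte markers was 2.72 in replicate 1, with 18 above 0, and -0.01 in replicate 2, with 9 above 0. The part of those markers in the C/EBP values was not tested, and replicate numbers were not shown to pair the libraries. Leaving out forskolin 2 brought all 5 genes past the threshold, with limma adjusted p = 0.0192 for Cebpa, 0.0135 for Cebpg and 0.0407 for Cebpz. That fit sets 1 forskolin library, the one with the highest hepatocyte marker sum, against 2 controls, assumes that it varies as they do, and calls 1879 genes higher instead of 235. In whole islets, fewer cells of a type and less RNA per cell cannot be told apart.

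**Figure D1:**
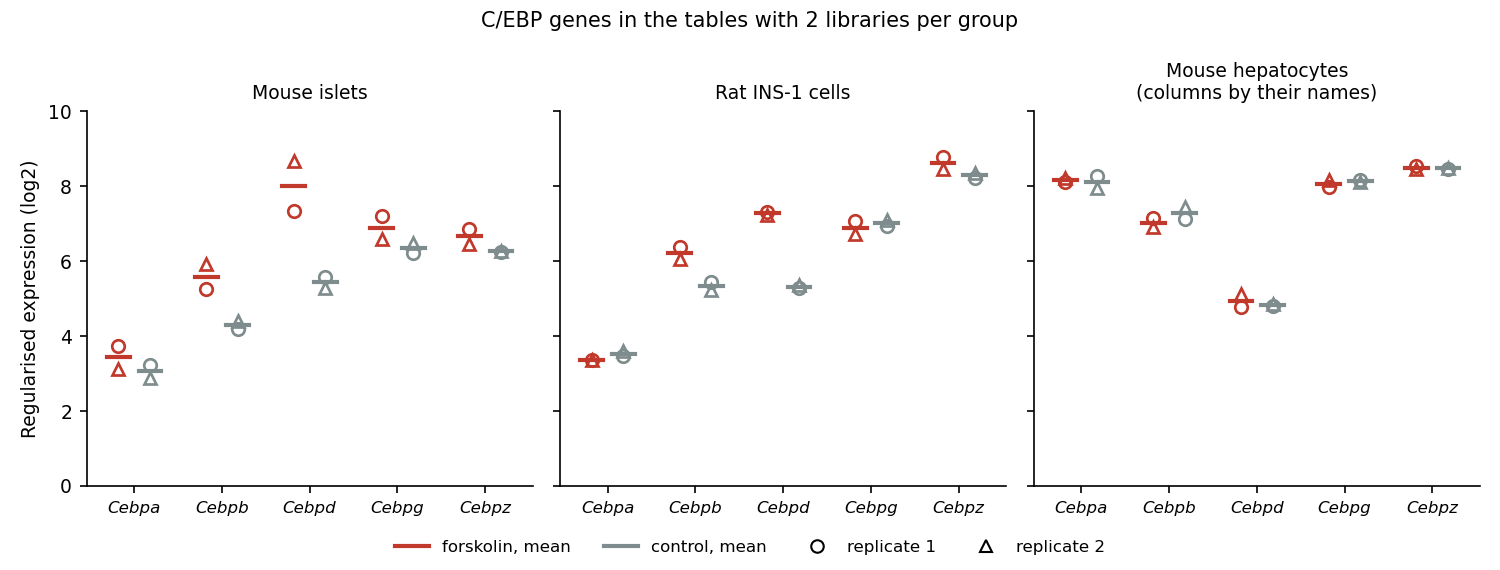
Deposited regularised expression (log2) of the C/EBP genes in forskolin (red, left) and control (grey, right) libraries of mouse islets, rat INS-1 cells and mouse hepatocytes; symbols are libraries and lines group means (n = 2). Cebpb and Cebpd lie higher with forskolin in islets and INS-1 cells, where Cebpd averaged 7.28 against 5.32, and the groups overlap for each gene in hepatocytes read by column name.

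In INS-1 cells Cebpd and Cebpb were again the members called. Cebpd stood at 7.32 and 7.23 in forskolin cells 1 and 2, against 5.28 and 5.36 in control cells 1 and 2, groups far apart relative to the gap within each. The difference of 1.96 (SE 0.125, limma adjusted p = 5.13e-06), 3.89-fold on the regularised scale, ranked 23 among 10345 genes. Cebpb stood at 6.37 and 6.07 in forskolin cells, against 5.44 and 5.22 in control cells, with no overlap. Its difference was 0.89 (SE 0.141, limma adjusted p = 0.00410), 1.85-fold on that scale, at rank 149. So 2 of 5 genes were called, both higher, where 3.07% of tested genes were called higher and 1.24% lower. Both calls held under every alternative run for INS-1 cells. The authors' deposited table calls 2.7% of 11980 genes higher and 0.902% lower. In the authors' deposited table the log2 fold changes are 3.69 for Cebpd (adjusted p = 1.18e-26) and 1.73 for Cebpb (adjusted p = 9.66e-05).

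Cebpa stood at 3.36 in each forskolin INS-1 library, against 3.47 and 3.60 in the control libraries. The groups did not overlap, but the difference of -0.17 was not called (limma adjusted p = 0.283). Cebpz stood at 8.79 and 8.47 in forskolin cells, against 8.22 and 8.36 in control cells (difference 0.34, adjusted p = 0.281). Most of that gap came from replicate 1, with 0.57 there and 0.11 in replicate 2. Cebpg, at 7.06 and 6.73 in forskolin cells and 6.93 and 7.10 in control cells, overlapped (difference -0.12, adjusted p = 0.734).

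The genes that responded are short and without introns. In mm10, Cebpb lies on chromosome 2 from 167688915 to 167690432 and Cebpd on chromosome 16 from 15887286 to 15889545, both on the plus strand, and GENCODE M21 gives Cebpb-201 and Cebpd-201 as 1 exon each. Cebpa (chromosome 7, 35119293 to 35121928, plus strand) also has 1 exon. Its neighbour Cebpg (chromosome 7, 35046422 to 35056566, minus strand) has 2 exons in Cebpg-201, and Cebpz (chromosome 17, 78919003 to 78937070, minus strand) has 16 in Cebpz-201. Each gene overlaps another on the opposite strand: Gm45091 for Cebpa, Tmem189 for Cebpb, Spidr for Cebpd, Gm45095 for Cebpg and Cebpzos for Cebpz. The replicated tables were counted on 1 strand, per the file headers. No source used here gives the strand setting of the other tables, so reads of such pairs may not be told apart there.

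The rat promoters of Cebpb and Cebpa are shown because CREB, the factor the series is about, binds the cAMP response element TGACGTCA and its half-site TGACG, and Cebpb was called higher in INS-1 cells while Cebpa was not called. Sequences are RefSeq windows on the rat build GRCr8 from 250 bases before to 50 after the annotated start, and 4 of the 5 genes had an entry (Cebpd had none). Capitals mark half-sites, TGACG or its reverse complement CGTCA. The Cebpb window is chr3:176816755-176817054 and the Cebpa window chr1:96896334-96896633, both on the plus strand.
Cebpb: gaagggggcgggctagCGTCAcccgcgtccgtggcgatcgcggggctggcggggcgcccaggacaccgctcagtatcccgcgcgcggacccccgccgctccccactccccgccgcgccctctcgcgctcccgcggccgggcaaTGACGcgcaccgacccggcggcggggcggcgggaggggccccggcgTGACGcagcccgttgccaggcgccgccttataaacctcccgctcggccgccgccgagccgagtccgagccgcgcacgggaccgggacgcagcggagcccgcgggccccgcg
Cebpa: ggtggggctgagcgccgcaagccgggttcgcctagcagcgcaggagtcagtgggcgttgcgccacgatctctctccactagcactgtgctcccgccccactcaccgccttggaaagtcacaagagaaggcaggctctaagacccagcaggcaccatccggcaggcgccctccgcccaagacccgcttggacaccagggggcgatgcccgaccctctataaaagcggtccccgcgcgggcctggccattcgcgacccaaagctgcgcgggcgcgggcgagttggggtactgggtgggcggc

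The Cebpb window holds 3 half-sites, TGACG at 107 and 61 bases before the start and CGTCA at 234 bases before it. Searched on both strands, 4.96% of 33469 rat promoter windows held 2 or more half-sites and 21.2% at least 1. The Cebpa window holds none, the Cebpg window none and the Cebpz window 1, CGTCA at 43 bases before the start. No member's window holds the full TGACGTCA, which 1.83% of windows have. A TATAAA stands 33 bases before the start of Cebpb and 35 before that of Cebpa, against a share of 8.80% over all windows. The Cebpg window holds 2 copies of ATTGG, the reverse of the CCAAT box (CCAAT, on either strand in 37.5% of windows), at 116 and 55 bases before the start. A match describes letters only.

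In hepatocytes, read by the column names, none of the 5 genes moved past the threshold. Cebpb stood at 7.15 and 6.91 in the columns named forskolin 1 and 2, against 7.12 and 7.44 in those named control 1 and 2. Cebpa, known for its role in hepatocytes, stood at 8.12 and 8.22 in forskolin columns, against 8.29 and 7.96 in control columns. Cebpd stood at 4.77 and 5.12 in forskolin columns, against 4.80 and 4.87 in control columns. All 5 groups overlapped, Cebpg and Cebpz included, and differences lay between -0.24 for Cebpb and 0.12 for Cebpd (limma adjusted p = 0.9999 each). None of 12593 genes was called in limma (0%), with 32 at an unadjusted p under 0.05, none of them a C/EBP gene. The authors' deposited table calls 0.323% of 15492 genes higher and 0.0452% lower, none of them a C/EBP gene.

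With the replicate 2 columns exchanged, the order that the header and the authors' fold changes follow (r = 0.977 over 8854 genes, against 0.206 by name), the signs turned for 3 genes. Cebpb then stood at 7.15 and 7.44 with forskolin, against 7.12 and 6.91 in controls, and the difference was 0.28. Cebpa then stood at 8.12 and 7.96 with forskolin, against 8.29 and 8.22 in controls, a difference of -0.21, and Cebpd differed by -0.14. Cebpg and Cebpz differed by -0.12 and 0.05. In this reading the groups of Cebpa, Cebpb, Cebpg and Cebpz did not overlap, and in the fit without a replicate block none of the 5 genes was called (limma adjusted p = 0.9999 each), where 0.0238% of 12597 genes were called higher and 0% lower. At an unadjusted p under 0.05 there were 383 genes, none of them a C/EBP gene. The authors' deposited table gives log2 fold changes of 0.40 for Cebpb, -0.31 for Cebpa and -0.23 for Cebpd, none past its threshold. Pck1 differed by 2.45 when exchanged (limma adjusted p = 0.00191). With a replicate block on the exchanged columns, Cebpb was called higher and Cebpa lower, with values given below under the dependence on processing. Replicate numbers were not shown to pair the libraries.

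Resting levels of the genes were ordered differently in each cell type. Levels are per length (approximate RPKM, from the log2 values), and tables were normalised separately, so they are set side by side without a test. By the column names, control hepatocytes averaged 36.2 ± 7.73 for Cebpa and 34.7 ± 3.41 for Cebpb (SD, n = 2), which did not differ beyond their spread. Then came 29.7 ± 1.65 for Cebpz, 20.4 ± 1.71 for Cebpg and 4.26 ± 0.0832 for Cebpd. Those means take in the column named control 2, which the header's order gives as forskolin. With the replicate 2 columns exchanged, the controls stood at 41.7 and 37.2 for Cebpa, above 32.3 and 26.1 for Cebpb, and Cebpb then overlapped Cebpz at 30.8 and 28.3. Control INS-1 cells averaged 38.8 ± 2.28 for Cebpg, 33.6 ± 1.60 for Cebpz, 15.0 ± 0.229 for Cebpd, 12.1 ± 1.59 for Cebpb and 1.85 ± 0.0760 for Cebpa. Control islets averaged 8.19 ± 1.06 for Cebpd, 8.03 ± 0.301 for Cebpz and 7.41 ± 1.08 for Cebpg, which did not differ beyond their spread, then 5.52 ± 0.697 for Cebpb and 1.35 ± 0.198 for Cebpa. The place of Cebpd in this order was different in FPKM. For islets the FPKM columns appear to repeat replicate 2, whose control had 7.44 approximate RPKM for Cebpd. Approximate RPKM comes from regularised values, which pull low genes towards the mean. For INS-1 cells the FPKM come from other libraries. The cause of the different place was not tested. In FPKM, control wild-type islets had 3.40 for Cebpd, below 4.09 for Cebpb, 8.02 for Cebpz and 9.10 for Cebpg, and control INS-1 cells of the inhibitor experiment had 6.68 for Cebpd, below 19.98 for Cebpb. Across the replicated tables, Cebpa and Cebpb had their highest control means in hepatocytes and Cebpd, Cebpg and Cebpz in INS-1 cells. With forskolin Cebpd had the highest mean approximate RPKM of the 5 genes, at 48.2 ± 27.5 in islets and 52.0 ± 1.97 in INS-1 cells. Cebpb stood at 12.5 ± 3.42 and 20.001 ± 2.80 there (SD, n = 2 each).

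Cebpd and Cebpb were far higher with forskolin in CRTC2KO as in wild-type islets. Cebpd stood at 96.5 FPKM in forskolin and 2.94 in control CRTC2KO islets, against 143 in forskolin and 3.40 in control wild-type islets. Estimated from the value of 1 read, these rest on 131, 38, 745 and 16 reads. The ratio of forskolin to control was 32.9 in CRTC2KO islets, with an exact 95% counting interval of 22.4 to 47.8, and 42.2 in wild-type islets (26.4 to 75.8). Cebpb stood at 31.0 FPKM in forskolin and 3.95 in control CRTC2KO islets, against 37.7 in forskolin and 4.09 in control wild-type islets. Its ratios were 7.86 (4.52 to 13.1) in CRTC2KO and 9.23 (5.31 to 18.1) in wild-type islets. The intervals of the 2 genotypes overlap for both genes. They cover counting error only, and with 1 library per group there is no replicate check and no test of a difference between genotypes. The read counts behind them are themselves uncertain. Per library, 49.9% to 56.3% of genes with few reads lay within 0.1 of a whole read. Depth was estimated at 2.30 and 2.13 M reads for forskolin and control wild-type islets, against stated totals of 3.88 and 3.07 M for islet replicate 2.

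**Figure D2:**
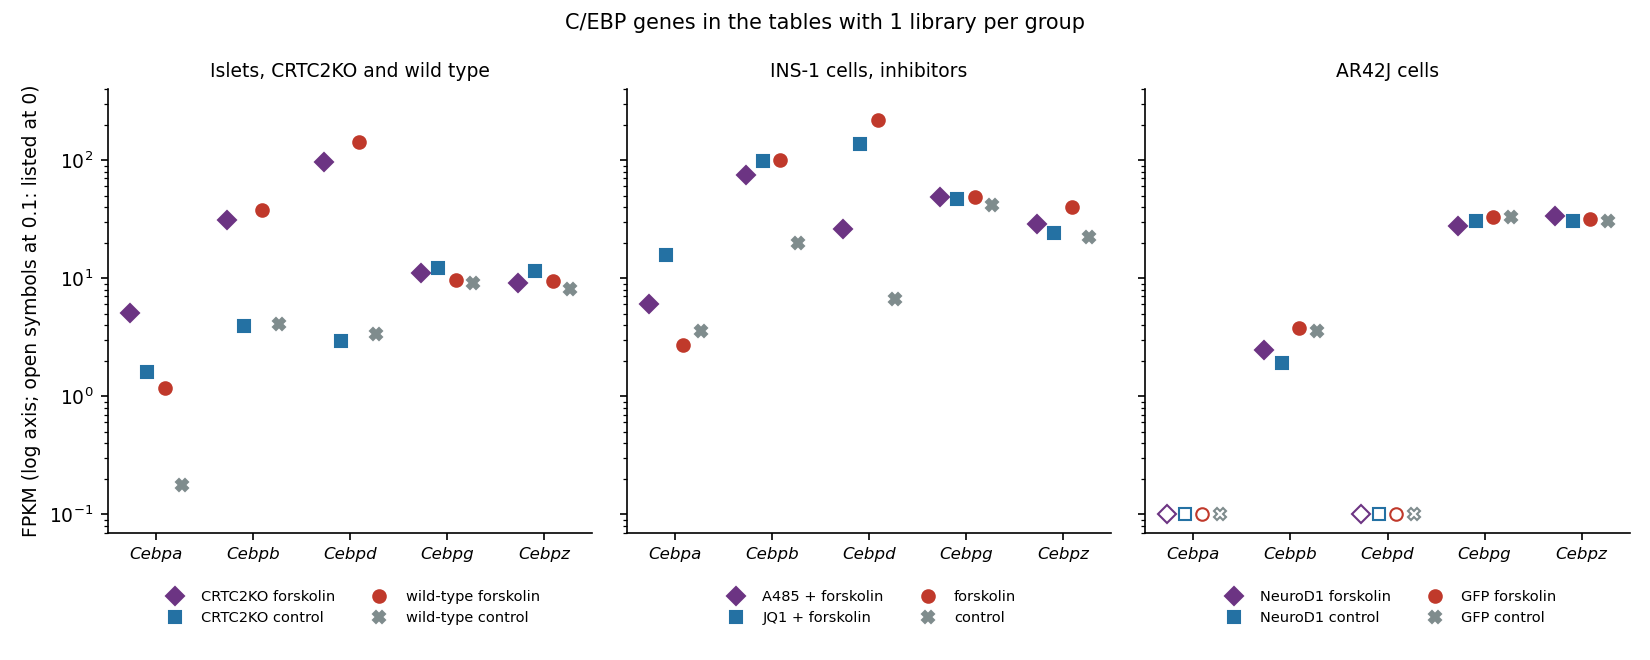
FPKM (log axis) of the C/EBP genes in the 3 tables with 1 library per group; open symbols at the foot stand for genes listed at 0. Cebpd spans 2.94 to 143 in islets and 6.68 to 217 in INS-1 cells, while Cebpg lies between 9.10 and 12.1 in islets and between 42.0 and 49.1 in INS-1 cells.

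Of the remaining members Cebpg and Cebpz moved less in islets, and Cebpa rests on few reads there. Cebpg stood at 11.01 and 12.1 FPKM in forskolin and control CRTC2KO islets, against 9.62 and 9.10 in forskolin and control wild-type islets, and Cebpz at 9.19 and 11.48 against 9.40 and 8.02. Cebpa stood at 5.09 and 1.60 FPKM in forskolin and control CRTC2KO islets, on 8 and 24 reads, against 1.17 and 0.179 in forskolin and control wild-type islets, on 7 reads and 1 read. Its ratio of forskolin to control was 3.18 (1.22 to 7.20) in CRTC2KO islets and 6.53 (0.833 to 292) in wild-type islets. Counting a log2 ratio of at least 1 with 1 FPKM added to each value, 3 of 5 genes (Cebpa, Cebpb and Cebpd) were past it upward in CRTC2KO islets, where 12.1% of 13030 genes were and 11.5% of them lay as far downward. In wild-type islets 2 of 5 were (Cebpb and Cebpd, with Cebpa at 0.88), where 9.2% of genes were and 6.61% lay as far downward. Between control islets of the 2 genotypes only Cebpa was, where 3.98% of genes were and 1.82% lay as far downward, at a ratio of 8.96 that rests on 1 wild-type read (1.47 to 371). Hepatocyte markers summed to 6202 and 2304 FPKM in forskolin and control CRTC2KO islets, against 1657 and 1872 in forskolin and control wild-type islets. With forskolin 17 of 19 were past a log2 ratio of 1 upward in CRTC2KO islets (median 2.09). Between control CRTC2KO and control wild-type islets, 15 of 19 were (median 2.33). The order of Cebpa over the 4 libraries resembles theirs, except that control wild-type islets had the lower Cebpa but the higher marker sum. The 14 acinar markers summed to 1712 and 312 FPKM in forskolin and control CRTC2KO islets, against 6618 and 3674 in forskolin and control wild-type islets. Of 12 acinar markers tested, 12 were past 1 upward with forskolin in CRTC2KO islets and 2 in wild-type islets. Macrophage and leukocyte markers, 12 genes, summed to 225 and 174 FPKM in forskolin and control CRTC2KO islets, against 175 and 127 in forskolin and control wild-type islets. The part of these markers in the C/EBP values was not tested. The forskolin CRTC2KO library was also the shallowest, at an estimated 0.604 M reads. In the wild-type pair the unshrunken log2 ratio of Cebpd was 5.40, while the regularised log2 values of islet replicate 2 gave 3.38.

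With the p300/CBP inhibitor A485, INS-1 cells had much less Cebpd and somewhat less Cebpb than with forskolin alone. Cebpd stood at 26.1 FPKM with A485 and forskolin and at 138 with JQ1 and forskolin, against 217 with forskolin alone, and the untreated control had 6.68. These rest on an estimated 162, 605, 977 and 31 reads. With A485 it was 8.31-fold lower than with forskolin alone, a log2 ratio of -3.05. With 1 FPKM added to each value the log2 ratio was -3.01, which ranked 70 from the largest decrease among 10005 genes. With JQ1 it was 1.58-fold lower. Expressed as the part of the forskolin gain over control that was left, Cebpd kept 9.24% with A485 and 62.3% with JQ1.

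Cebpb stood at 74.8 FPKM with A485 and forskolin and at 98.2 with JQ1 and forskolin, against 99.96 with forskolin alone and 19.98 in control. Of its forskolin gain, 68.5% was left with A485 and 97.7% with JQ1. The counting interval of JQ1 with forskolin over forskolin alone was 0.871 to 1.11 for Cebpb and 0.573 to 0.704 for Cebpd. With A485 it was 0.665 to 0.842 for Cebpb and 0.101 to 0.142 for Cebpd. The intervals of the 2 genes were apart under both inhibitors. Forskolin itself gave ratios of 32.5 (22.5 to 47.6) for Cebpd and 5.003 (4.10 to 6.18) for Cebpb over control in this experiment.

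**Figure D3:**
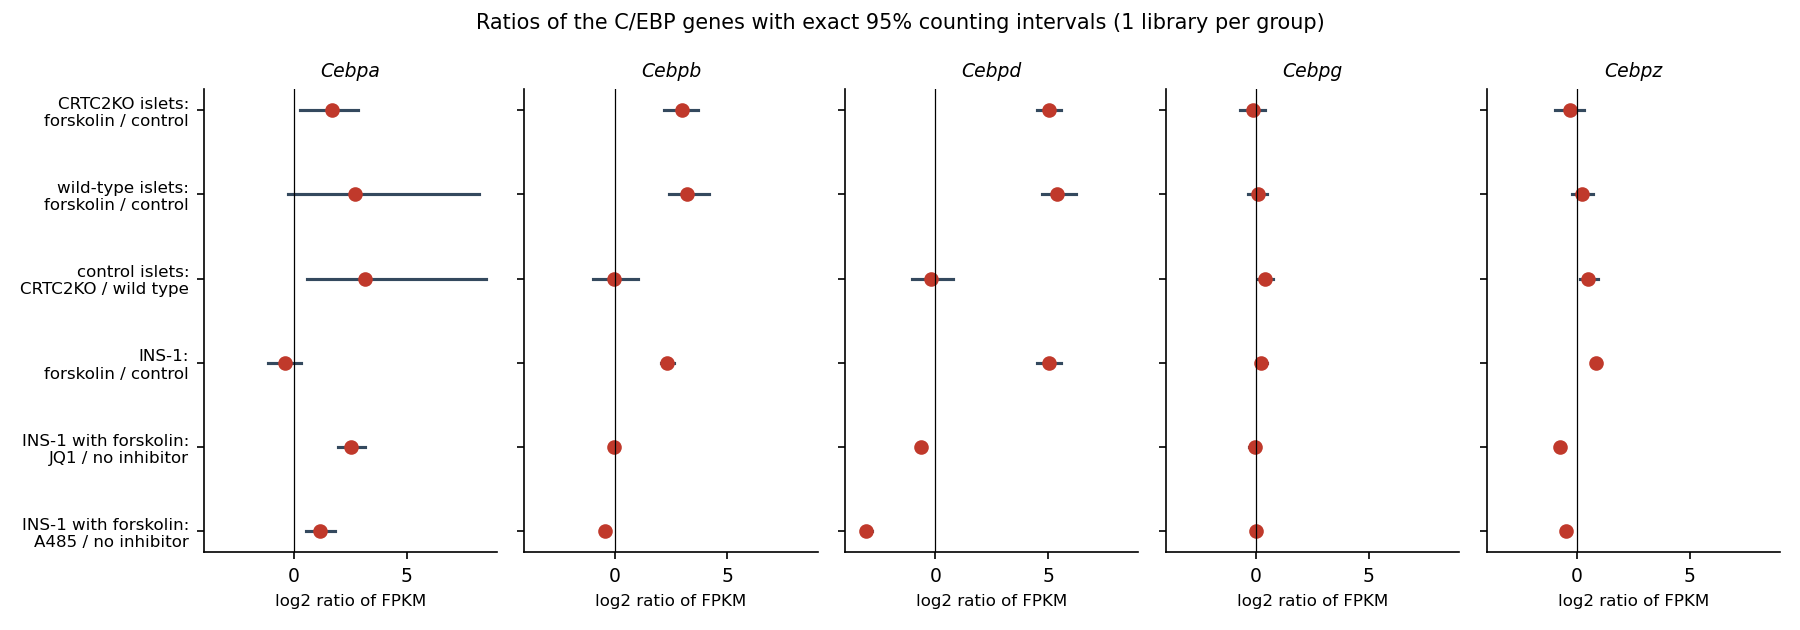
Log2 ratios of FPKM of each C/EBP gene in 6 comparisons, with exact 95% counting intervals as lines (1 library per group). Cebpd lies at 5.04 and 5.40 for forskolin in CRTC2KO and wild-type islets and at -3.05 for A485, while for JQ1 Cebpb lies at -0.03 and Cebpa at 2.53.

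Cebpa was higher with JQ1. It stood at 6.10 FPKM with A485 and forskolin and at 15.6 with JQ1 and forskolin, against 2.70 with forskolin alone and 3.60 in control, on 89, 161, 29 and 39 reads. The JQ1 library was the highest of the 4, with a ratio to forskolin alone of 5.78 (3.82 to 8.77). With 1 FPKM added it ranked 95 from the largest increase. The A485 ratio was 2.26 (1.45 to 3.51). Cebpz, at 28.9 and 24.4 FPKM with A485 and JQ1, against 40.4 with forskolin alone and 22.2 in control, lay near its control level with JQ1. Its forskolin ratio was 1.82 (1.59 to 2.07). In the replicated INS-1 table Cebpz was not called by limma on the shrunken scale. The authors' deposited table gives it a log2 fold change of 0.51 there (adjusted p = 0.410), also not past the threshold. Cebpg stayed between 42.0 and 49.1 FPKM in all 4 libraries.

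With forskolin, 2 of 5 genes were past a log2 ratio of 1 upward (Cebpb and Cebpd), where 5.12% of 10005 genes were and 4.35% lay as far downward. With JQ1 1 of 5 was past it upward (Cebpa), where 8% of genes were and 7.56% lay as far downward. With A485 1 of 5 was past it downward (Cebpd), where 9.38% of genes were and 5.32% lay as far upward. Each inhibitor is 1 library set against the same forskolin library, no library had an inhibitor without forskolin, and replicate error is unknown.

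AR42J cells listed Cebpd and Cebpa at 0 in 4 of 4 libraries. Hprt1, which every cell uses, is also listed at 0 in all 4, so a 0 here may be a failed estimate and gives no level. Cebpb stood at 2.48 and 1.90 FPKM in forskolin and control NeuroD1 cells, against 3.76 and 3.59 in forskolin and control GFP cells, on 9, 8, 18 and 18 reads. The ratio of forskolin to control was 1.31 (0.461 to 4.01) in NeuroD1 cells and 1.05 (0.519 to 2.16) in GFP cells, so neither a doubling nor its absence can be read at this depth. The ratio of NeuroD1 to GFP cells was 0.660 (0.258 to 1.53) with forskolin and 0.528 (0.192 to 1.24) in controls. Cebpg, at 27.4 and 30.3 FPKM in forskolin and control NeuroD1 cells and 32.9 and 32.7 in forskolin and control GFP cells, and Cebpz, at 33.7, 30.3, 31.5 and 30.3 in the same order, differed little. None of the 3 genes with a ratio, Cebpb, Cebpg and Cebpz, was past a log2 ratio of 1 in size in these comparisons. With forskolin 1.27% of 10120 genes were past it upward and 1.23% downward in NeuroD1 cells, and 1.12% upward and 0.692% downward in GFP cells. Between NeuroD1 and GFP cells 5.7% were past it upward and 4.05% downward with forskolin, and 6.68% upward and 4.65% downward in controls. Of 19 cAMP and CREB targets, 9 were past 1 upward with forskolin in NeuroD1 cells and 6 in GFP cells.

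**Figure D4:**
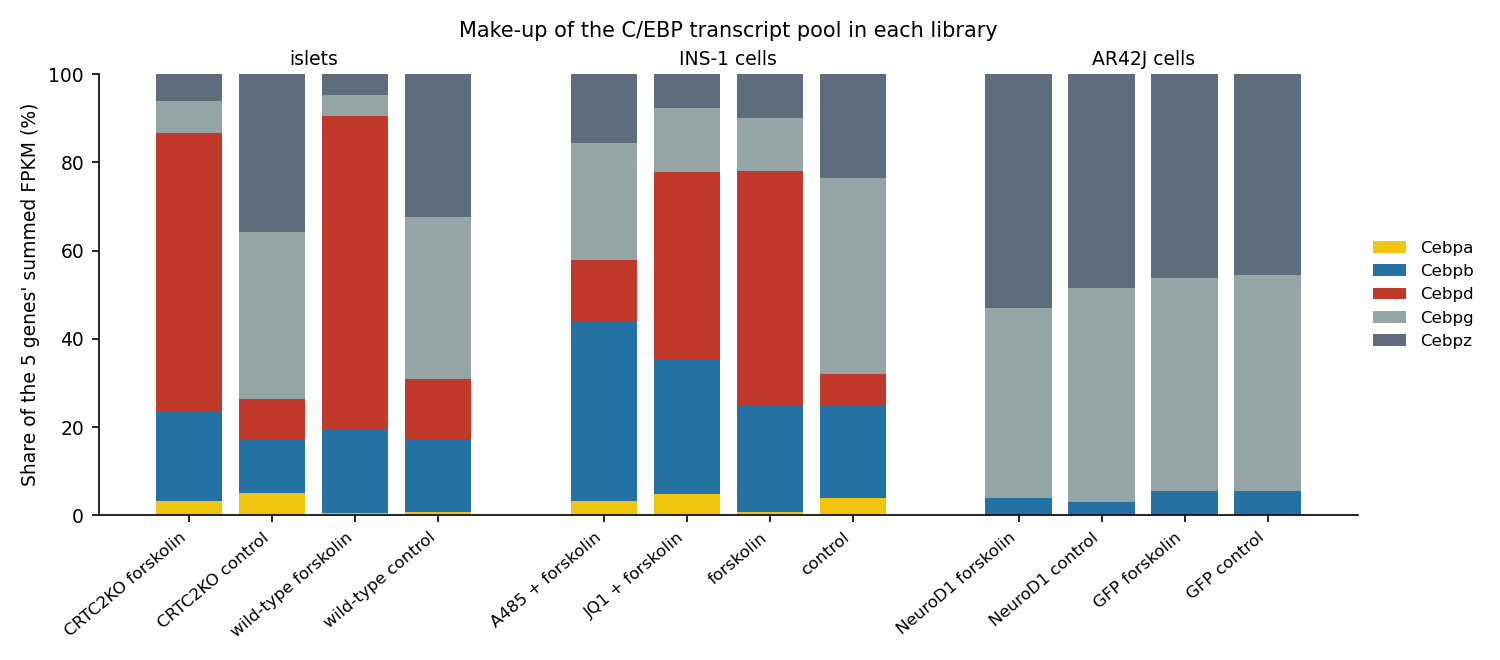
Share of the summed FPKM of the 5 C/EBP genes held by each gene, 1 bar per library of the tables with 1 library per group. Cebpd holds 63.1% and 71.2% in forskolin CRTC2KO and wild-type islets, 53.0% in forskolin INS-1 cells and 14.1% with A485, and AR42J bars show only Cebpb, Cebpg and Cebpz because Cebpa and Cebpd are listed at 0 there, which may be a failed estimate.

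The makeup of the family's transcripts differed with forskolin. In wild-type islets Cebpg and Cebpz held 4.78% and 4.67% of the 5 genes' summed FPKM with forskolin, against 36.7% and 32.4% in control. These shares come from 1 library each. In approximate RPKM, from the regularised values, the 2 genes held 19.3% and 17.6% in forskolin islets 1, against 22.2% and 26.1% in control islets 1. They held 7.73% and 8.20% in forskolin islets 2, against 26.3% and 26.5% in control islets 2. In INS-1 cells Cebpd held 14.1% with A485 and forskolin and 42.6% with JQ1 and forskolin, against 53.0% with forskolin alone and 7.07% in control. Cebpb was the largest share with A485, at 40.5%. In approximate RPKM of the replicated INS-1 libraries, Cebpd held 34.6% and 38.2% with forskolin, against 14.9% and 14.7% in control. In AR42J cells Cebpg held 43.1% to 49.2%, Cebpz 45.5% to 53.0% and Cebpb 3.03% to 5.51% of what was listed above 0, since Cebpa and Cebpd have no level there.

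Several other leucine zipper genes whose products can pair with C/EBP proteins rose with forskolin. Of 10 tested in islets, 5 rose (median 1.29, against 0.01 over all genes), led by Fos (3.60), an AP-1 subunit, Junb (2.87), Nfil3 (2.31), a repressor, Atf3 (1.85) and Jun (1.71). Of 11 tested in INS-1 cells, 6 rose (median 0.75), among them Junb (2.03), Nfil3 (1.83), Fos (1.79), Atf3 (1.48), Jund (1.33) and Atf4 (0.75), the amino acid response factor. Over all genes 1.72% were called higher in islets and 3.07% in INS-1 cells. In CRTC2KO islets 9 of 11 partners were past a log2 ratio of 1 upward, and 8 of 11 in wild-type islets. Over all genes 12.1% and 9.2% were past it upward there. Under A485 only Junb of 11 was past 1, upward at 1.65, and under JQ1 Ddit3 (1.16) and Atf3 (1.04) were, also upward. Of all genes 5.32% were past 1 upward with A485 and 8% with JQ1. The median over the 11 was -0.40 with A485, with 3 above 0, and 0.62 with JQ1, with 10 above 0. In AR42J cells 1 of 11 was past 1 with forskolin, Fos at 1.02 in NeuroD1 cells and Junb at 1.16 in GFP cells. Over all genes 1.27% and 1.12% were past 1 upward there. Fos and Junb are also on the list of cAMP and CREB targets.

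Genes that act on C/EBP transcription, protein or activity made up another list. In INS-1 cells 3 of 21 rose, Stat3 (0.70), the cytokine-activated factor, and the pseudokinases Trib1 (0.69), which directs C/EBPα to degradation, and Trib3 (0.52). The share called higher over all genes there was 3.07%. In islets none of 24 was called by limma (median 0.13). In the knockout table, 4 of 23 were past a log2 ratio of 1 upward with forskolin in CRTC2KO islets: Socs3 (2.54), a cytokine signalling inhibitor, Trib1 (1.58), Trib3 (1.46) and Stat3 (1.35). In wild-type islets there 5 of 23 were, Socs3 (2.55), Trib3 (2.26), Stat3 (1.66), Trib1 (1.43) and Rela (1.12), and 1, Rps6ka3, was past it downward. Of all genes 12.1% were past it upward in CRTC2KO islets, and 9.2% upward and 6.61% downward in wild-type islets. With A485, 6 of 20 were past a log2 ratio of 1 downward (median -0.43, against 0.01 over all genes): the glucocorticoid receptor Nr3c1 (-2.92), Trib2 (-2.54), Trib1 (-2.20), Stat3 (-1.65), the cytokine receptor chain Il6st (-1.44) and Trib3 (-1.16), while Jak2 (1.11) was past it upward. With JQ1, Trib2 (-1.32) and Nr3c1 (-1.31) were past it downward and Jak2 (1.37) upward. Over all genes 9.38% were past it downward and 5.32% upward with A485, and 7.56% and 8% with JQ1. The counts with JQ1 lie near those shares.

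Genes known as C/EBP targets moved in part. Of 17 liver genes tested in islets 3 rose, the coactivator Ppargc1a (2.00), fructose bisphosphatase Fbp1 (1.62) and tyrosine aminotransferase Tat (1.26). Over all genes 1.72% were called higher in islets and 3.07% in INS-1 cells. The list's median was 0.82, beside a median of 1.38 for the 19 hepatocyte markers, none of them called, whose part was not tested. In INS-1 cells Ppargc1a alone of 6 rose (1.82), and with A485 it stood at a log2 ratio of -3.87 and with JQ1 at -2.59. Ppargc1a and Pck1 are also on the list of cAMP and CREB targets, of which 17 of 19 rose in INS-1 cells. Of 20 amino acid response genes bound by ATF4 and C/EBP proteins, 2 rose in islets, Atf3 and the cystine carrier Slc7a11 (0.98). In INS-1 cells 5 of 17 rose, including Slc7a5 (1.28), Ddit4 (0.67) and Slc3a2 (0.65), beside Atf3 and Trib3. With A485 6 of 18 were past 1 downward and none upward, while with JQ1 5 were past it upward, led by Gclc (2.06), and none downward. Over all genes 9.38% were past it downward with A485 and 8% upward with JQ1. Of 16 genes of the acute phase list, mostly proteins that C/EBPβ and C/EBPδ induce in the liver, 12 were past 1 upward in CRTC2KO islets. Over all genes 12.1% were past it upward and 11.5% downward in those islets. There 1, Lcn2 (-1.71), was past it downward. In wild-type islets 1 was past it upward, the cytokine Il6 (1.98), where 9.2% of all genes were. The CRTC2KO set was led by Fgg (2.49), Hp (2.42) and Il6 (2.35), beside the rise of hepatocyte markers given above. Fga, Fgb and Fgg are on both lists.

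Ribosome assembly factors, the group to which the Cebpz product belongs, had 1 of 29 called with forskolin in INS-1 cells, Ddx21 (0.56), and none of 30 in islets (median 0.18). The count in INS-1 cells is close to the 3.07% of all genes called higher there. With JQ1, 8 of 29 were past a log2 ratio of 1 downward and none upward, and the median was -0.73, against -0.05 over all genes. One of the 8, Ebna1bp2, is listed at 0 with JQ1. Next in size are Utp20 (-1.40), Nip7 (-1.35), Rrs1 (-1.30), Dkc1 (-1.26) and Wdr12 (-1.14). Cebpz itself had a log2 ratio of -0.71 with JQ1, close to that median. With A485, 3 of 29 were past 1 downward (median -0.41), a share close to the 9.38% of all genes, and Ebna1bp2 is listed at 0 there too. Cebpz had -0.47.

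The pattern of Cebpb over 24 columns, each centred on its table's mean, was most like those of Csrnp1 (Pearson r = 0.971), Thrap3 (0.969), Fbxo34 (0.960), the AP-1 subunit Fosl1 (0.960) and Atf3 (0.959) among 7219 genes. Cebpg was most like Hook1 (0.896) and Dhx15 (0.895), and Cebpz most like Cul2 (0.870), with Ubxn4 next at 0.810. The columns share libraries and depth between genes, and 2 of them repeat islet replicate 2. Cebpa and Cebpd, listed at 0 in AR42J cells, were not ranked.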

How the data were processed

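RNA was made into strand-preserving libraries, per the labels' protocols. For islets, INS-1 cells and hepatocytes the authors counted exon reads with HOMER (mm10, rn6) and deposited regularised log2 values, which pull low genes towards the mean, with log2 fold changes and p-values, per the file headers. The submitters' processing notes name TopHat2 2.0.9, STAR and DESeq2. The authors gave no unit in the other 3 deposited tables, whose values behave as FPKM, and how those were made is not stated in the headers. The log2 values were fitted per table with limma 3.58.1 (variance trend, group mean of at least 1, Benjamini-Hochberg over all genes, threshold 0.05). Approximate RPKM was computed from them. FPKM ratios had no test: calls used 1 FPKM added, a log2 ratio of 1 and at least 1 FPKM in the highest library, and reads behind exact (Clopper-Pearson) 95% intervals, which cover counting error only, were estimated from the value of 1 read. The steps were tested on simulated data. Members, the 8 pathway lists and the 8 marker lists were chosen with earlier results of these data known. The design foresaw counts; limma replaced a count test because the deposited values are log2. From each pathway list, up to 6 genes with the largest changes past the threshold were named.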

Additional observations from a re-analysis of the deposited data

Results flagged for a closer look

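The forskolin minus control difference of Cebpa had opposite signs in islets and INS-1 cells. It was above 0 in both replicate numbers of islets, with a mean of 0.37 on the log2 scale, and below 0 in both replicate numbers of INS-1 cells, with a mean of -0.17. These opposite signs in every replicate number are what drew attention, although the numbers were not shown to pair libraries and the islet groups overlapped. The difference between them was not tested, since the tables were normalised separately, and neither difference was called. The islet difference was 0.50 in replicate 1, where hepatocyte markers had a median difference of 2.72, and 0.24 in replicate 2, where it was -0.01.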

How the results depend on the processing

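Replicate numbers were not shown to pair libraries: same-numbered libraries' deviations correlated at -0.05 in islets, 0.44 in INS-1 cells and 0.40 in hepatocytes, with 2 pairs each. With a replicate block, 667 genes were higher and 120 lower in islets and 774 and 691 in INS-1 cells, against 235 and 33, and 318 and 128, without it. The C/EBP calls did not change in number. In islets, called C/EBP genes numbered 0 without a variance trend (12 genes lower in all), 1 with no filter (18 lower), and 1 to 5 leaving out a library: 5 without forskolin 2, 1 without control 1. Leaving out a library gave 114 to 1879 genes higher and 7 to 961 lower. Genes lower numbered 56 at a group mean of at least 5 and 52 under quantile normalisation. In INS-1 cells 194 were higher and 32 lower without a variance trend, and leaving out a library gave 197 to 367 higher and 36 to 147 lower. Cebpg then ranged from -0.29 to 0.0468, above 0 without forskolin 2.

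In hepatocytes, exchanging the replicate 2 columns gave 3 genes higher and turned Cebpa to -0.21, Cebpb to 0.28 and Cebpd to -0.14. With a replicate block on the exchanged columns, 395 genes were higher and 227 lower, and 2 C/EBP genes were called, Cebpb at 0.28 (limma adjusted p = 2.25e-04) and Cebpa at -0.21 (adjusted p = 0.00234), while Cebpd stood at -0.14 (adjusted p = 0.216). Behind that Cebpb value, the pairs differed by 0.03 and 0.52. Read by name, leaving out a library gave 0 to 4 genes higher. Cebpa then ranged from -0.12 (without control 2) to 0.21, with -0.00662 without forskolin 2, Cebpd from -0.0590 (without forskolin 2) to 0.29, Cebpg from -0.17 to 0.0203 (without forskolin 1), and Cebpz from -0.0261 (without forskolin 1) to 0.0629. The cause of these changes was not tested. With a pseudocount of 0.1, 2 C/EBP genes were past a log2 ratio of 1 with A485, Cebpa the added one at 1.15.

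Limits are the 2 libraries per group, the low depth of forskolin CRTC2KO islets and AR42J Cebpb, the unreplicated FPKM tables, and hepatocyte column names that go against the header.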

Other observations

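Some genes around the C/EBP family differed between AR42J cells with NeuroD1, a basic helix-loop-helix factor of endocrine cells, and with GFP. In control cells, NeuroD1 against GFP, the dimer partner Junb stood at 1.74, and Atf3 (-1.64) and Batf3 (-1.14) at lower values, with a median of -0.46 over 11 partners, against -0.01 over all genes. Of 19 amino acid response genes, 2 were past 1 upward, Psph (1.57) and Asns (1.19), and 5 downward, among them Atf3, Trib3 (-1.48) and Mthfd2 (-1.18). Over all genes 6.68% were past 1 upward and 4.65% downward. Of 3 tested acute phase genes Lcn2 stood at -1.65 and Crp at 1.62. Each group is 1 library.

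Of the adipogenic C/EBP targets, Ccnd3, a cyclin, was the only one of 5 called in INS-1 cells with forskolin (0.77, limma adjusted p = 0.00624), and none of 7 was called in islets. Over all genes 3.07% were called higher in INS-1 cells and 1.72% in islets. Cidec, a lipid droplet gene, stood at a log2 ratio of -1.87 with A485 and -1.75 with JQ1.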
